A study of Mus musculus with 4 samples.

Results

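Aldh1a1 and Aldh1a2 encode retinaldehyde dehydrogenases, the enzymes that oxidise retinaldehyde to retinoic acid. Both genes were named in the deposited list of CHD4 binding sites, and they were chosen by that measured call of a peak: every peak whose gene symbol is Aldh1a1 or Aldh1a2 was taken, and peaks with the same chromosome, start and end were to be merged. The list held 1 peak for each gene, so nothing needed merging. These are 2 of the 1517 genes named in the list and 2 of its 1849 intervals. The sites were mapped by CUT&Tag, in which the Tn5 transposase, fused to protein A/G, is brought by an antibody to the bound protein and cuts and tags the DNA beside it. CHD4 is the chromatin-remodelling subunit of NuRD, a complex that also removes acetyl groups from histones. The samples were wild-type mouse cells of the C57BL/6 strain labelled spermatogonial, 2 with a CHD4 antibody and 2 with an IgG control, prepared from digested testes. All 4 samples share strain and genotype. The sources used here state neither age nor a step that separated spermatogonial cells from other testis cells. The antibody listed for the control samples is an anti-mouse IgG raised in rabbit and coupled to peroxidase.

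Retinoic acid is made from retinol by oxidation to retinaldehyde, mainly through RDH10, and then to the acid by the ALDH1A enzymes. It acts through RAR and RXR receptors on DNA, is held in the cytoplasm by CRABP proteins and is broken down by CYP26 enzymes. In the testis it drives spermatogonia to differentiate and germ cells to enter meiosis, with Stra8 among its targets. In mouse testis Aldh1a1 is known mainly from Sertoli cells and Aldh1a2 mainly from germ cells at and after meiosis.

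The interval named for Aldh1a2 (gene identifier 19378) lay just inside the gene, at chr9:71215791-71216173 of mm10. It was 383 bp wide. It began 2 bp downstream of the transcript start, which is on the plus strand at position 71215789, and so did not contain that start. Its summit was 252 bp and its end 384 bp past the start. The authors class it as promoter within 1 kb, a class that does not say which exon or intron it covers. The gene table gives Aldh1a2 as a protein-coding gene of 80.5 kb that begins at the same base. The nearest gene upstream is the long non-coding RNA gene Gm3458, whose boundary lies 405 bp from the interval, and no gene other than Aldh1a2 overlapped it.

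The interval named for Aldh1a1 (gene identifier 11668) lay inside the gene, at chr19:20614281-20614592, and was 312 bp wide. It began 12.3 kb downstream of the transcript start assigned by the authors, which is on the plus strand at position 20601961. That is 29.7% of the way along a transcript of 41.5 kb. The summit was at 12.5 kb. The authors place it in intron 5 of 6, counted along a different transcript of the gene from the one that gave the distance. RefSeq also has a start farther upstream, at 20492583, and the interval began 122 kb past it. Only Aldh1a1 overlapped the interval, and the neighbouring paralog Aldh1a7 lay 78.4 kb away.

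**Figure D1:**
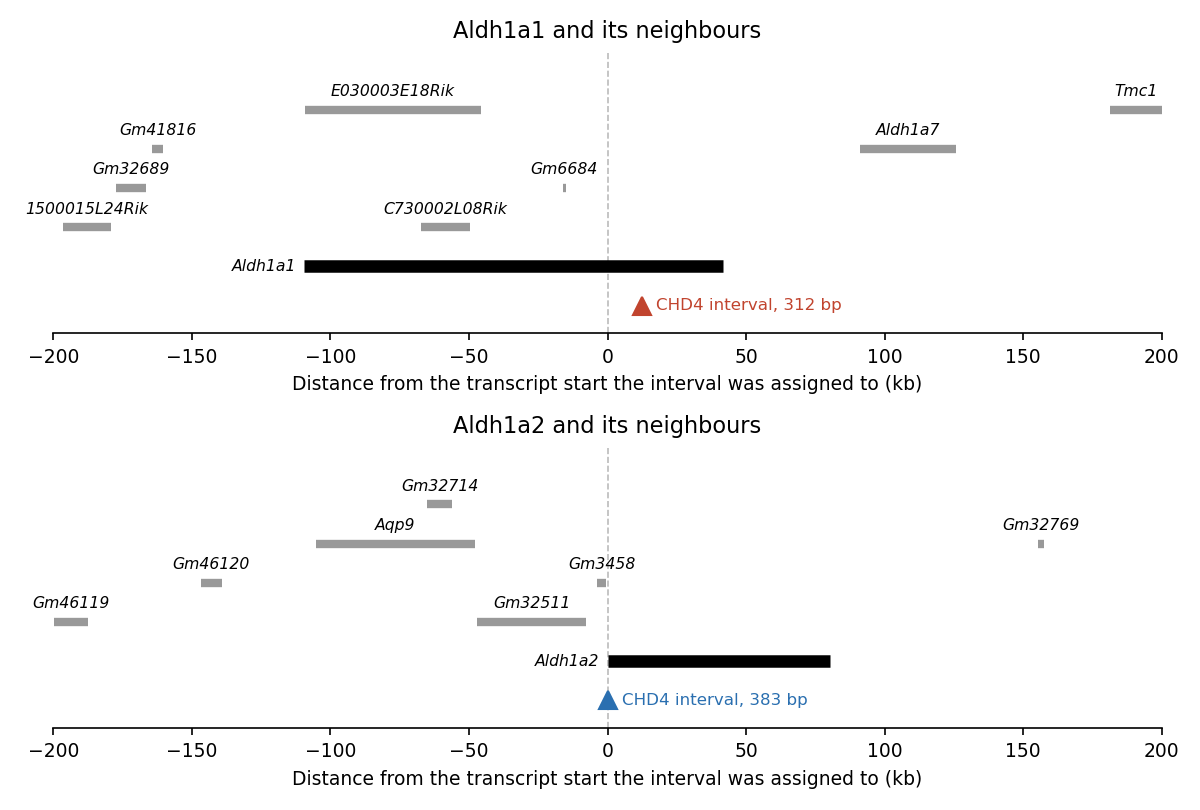
Maps of the Aldh1a1 and Aldh1a2 loci, with distance in kb from the transcript start (dashed line) on the x axis. Black bars are the member gene, grey bars its neighbours in the RefSeq gene table and triangles the CHD4 interval, which lies at the start of Aldh1a2 and at 12.5 kb within Aldh1a1.

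The promoter sequences show how differently the starts of these genes are built. The Aldh1a2 promoter is shown because the interval abuts it, the Aldh1a1 promoter because no interval was called there, and the Aldh1a7 promoter because it is close in sequence to that of Aldh1a1. Each is the 250 bases before a RefSeq start on build GRCm38.p6, which shares chromosome coordinates with mm10, read along the gene. They lie at chr9:71215539-71215788 on the plus strand, chr19:20601718-20601967 on the plus strand and chr19:20727557-20727806 on the minus strand. Capitals mark the letters ATGCAAAT, the octamer recognised by POU-domain transcription factors.
Aldh1a2: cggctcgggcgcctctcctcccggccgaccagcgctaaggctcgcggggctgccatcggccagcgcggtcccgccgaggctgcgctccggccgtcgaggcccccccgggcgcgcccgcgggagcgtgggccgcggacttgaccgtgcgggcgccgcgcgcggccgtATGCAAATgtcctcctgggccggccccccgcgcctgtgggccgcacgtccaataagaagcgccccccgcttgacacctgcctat
Aldh1a1: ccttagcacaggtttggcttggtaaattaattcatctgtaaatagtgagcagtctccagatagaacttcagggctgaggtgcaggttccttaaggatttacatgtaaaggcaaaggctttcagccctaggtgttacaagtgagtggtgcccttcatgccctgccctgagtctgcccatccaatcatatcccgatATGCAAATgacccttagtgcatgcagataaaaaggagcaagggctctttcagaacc
Aldh1a7: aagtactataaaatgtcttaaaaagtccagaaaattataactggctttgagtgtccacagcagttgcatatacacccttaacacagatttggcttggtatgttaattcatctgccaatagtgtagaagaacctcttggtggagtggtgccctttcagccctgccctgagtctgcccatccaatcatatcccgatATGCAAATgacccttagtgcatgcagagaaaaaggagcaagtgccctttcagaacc

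The Aldh1a2 promoter was among the richest in CpG of the RefSeq set. Its 300-base window, 250 bases before the start and 50 from the start on, was 78% G and C and held 50 CpG dinucleotides, more than 99.1% of the 32851 windows. The median over all windows was 7 CpG. Over the 670 windows of genes named for a promoter interval within 1 kb, the median was 20. The interval covered the last 48 bases of the Aldh1a2 window, which is 12.5% of its own length, and these held 10 CpG. The Aldh1a1 window at the shown start was 47% G and C and held 1 CpG, and the window at the upstream RefSeq start held 3. The remaining sequence of both intervals was not analysed here, since no genome was used.

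The octamer lay 84 bases before the start of Aldh1a2 and 56 bases before the starts of Aldh1a1 and Aldh1a7. It was searched after these sequences had been seen. Searched on both strands, ATGCAAAT occurs in 1.74% of all windows, and the upstream Aldh1a1 window lacks it. In Aldh1a2 it lies outside the CHD4 interval. The 250 bases of Aldh1a1 and Aldh1a7 were identical at 185 of 228 aligned positions (81.1%), and the longest run they share without a difference was 65 bases, octamer included. The pair Aldh1a1 and Aldh1a2 had 65.4% identity over 205 aligned positions, with gaps placed freely and 90 gap positions left out. The identical bases were 53.6% of the 250. No unrelated promoters were aligned for comparison, so no likeness of this pair is read from these values. A CCAAT box, spelled CCAAT and searched on both strands, was present in Aldh1a2 at 36 bases, in Aldh1a1 at 72 and 2 bases and in Aldh1a7 at 137 and 72 bases before the start, and not in the upstream Aldh1a1 window. Of all windows, 37.4% hold it. The retinoic acid receptor half-site AGGTCA, on either strand, was in none of the 4 windows of these 3 genes and in 16.3% of all windows. The GC box GGGCGG was likewise in none of the 4, against 35.7% of all windows. The letters TATAAA, a spelling of the TATA box, were found on either strand in Aldh1a7 alone of these windows. They lay 244 bases before its start and occur in 13.6% of all windows. Other spellings of the TATA box were not searched, so neither its presence nor its absence is read from this. These matches describe letters in the windows and not binding.

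The fold of CHD4 over IgG at the summit, the authors' own value from the peak caller, was 5.84 for Aldh1a2 and 5.20 for Aldh1a1. On the log2 scale these are 2.55 and 2.38. The median over all intervals was 4.76, with a range from 1.75 to 13.6. By fold, Aldh1a2 ranked 401 and Aldh1a1 ranked 661 among the 1849 intervals. Among the 631 promoter intervals within 1 kb, whose median fold was 4.32, 87.2% had a lower fold than Aldh1a2. Among the 493 intronic intervals, with a median of 5.13, 52.5% had a lower fold than Aldh1a1. These are descriptions, because being in the list is what chose the genes.

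**Figure D2:**
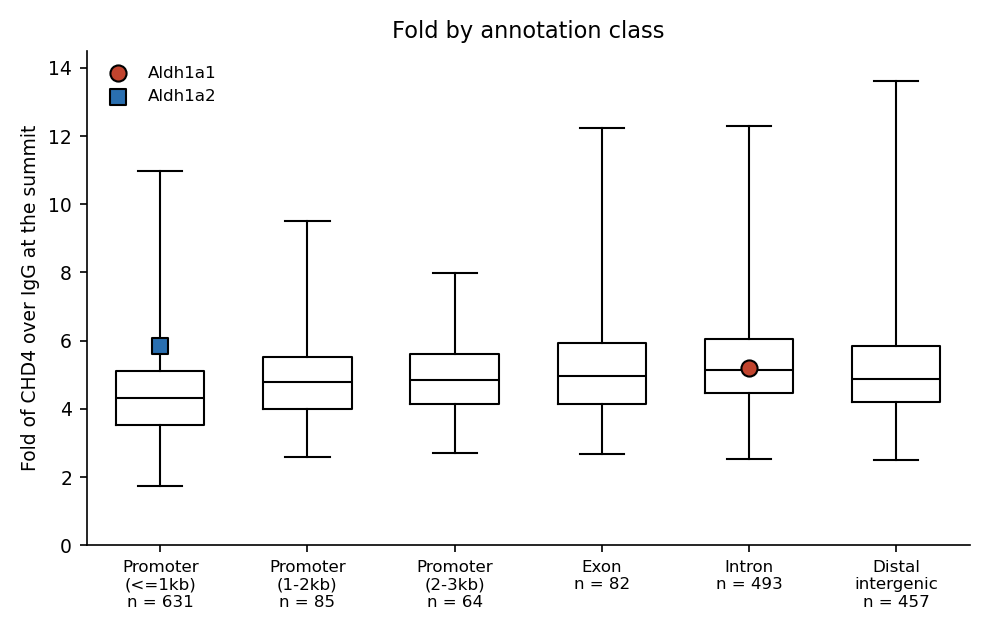
Fold of CHD4 over IgG (y axis) by the authors' annotation class (x axis); boxes give quartiles and median, whiskers the full range, for the 6 classes of over 50 intervals. Aldh1a2, at 5.84, lies above the box of promoter intervals within 1 kb, and Aldh1a1, at 5.20, lies at the middle of the intronic box.

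Few fragments stood behind either fold. The list states no depth, but each summit's fold and p allow the number of CHD4 fragments and the IgG expectation to be recovered. The numbers are in the largest unit that solves the whole list. A unit smaller by a factor of 2 solves it too, with an even number at all 2066 summits, so every number printed here could be larger in the same proportion, and the list alone does not settle this. The Aldh1a1 summit held 14 CHD4 fragments (exact 95% Poisson interval 7.65 to 23.5). The Aldh1a2 summit held 16 (9.15 to 26.0). These intervals hold if 1 unit is 1 fragment, and each contains the fragment number of the other gene. No difference between the 2 genes in fragments or fold is read from them, and none was tested. These Poisson intervals cover counting error only. The median interval of the list held 27 fragments, the lowest 12 and the highest 177. Only 92 intervals, or 4.98%, had fewer fragments than Aldh1a1, and 192, or 10.4%, had fewer than Aldh1a2. Among intervals of their own class, 6.49% of intronic ones lay below Aldh1a1 and 5.07% of promoter ones below Aldh1a2, against class medians of 23 and 34 fragments.

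The IgG expectation was 0.346 scaled fragments at both summits, the lowest value in the list. It was shared by 131 summits in 129 intervals and is taken as the background that the caller uses where the local IgG signal is no higher. The denominator of both folds is thus this background plus the 1 that the caller adds, and not a local IgG count. This lowest expectation was found at 58 of the 493 intronic intervals (11.8%) and at 10 of the 631 promoter intervals within 1 kb (1.58%). Aldh1a2 was 1 of those 10. The median expectation was 2.40 in promoter intervals within 1 kb and 1.00 in intronic ones.

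**Figure D3:**
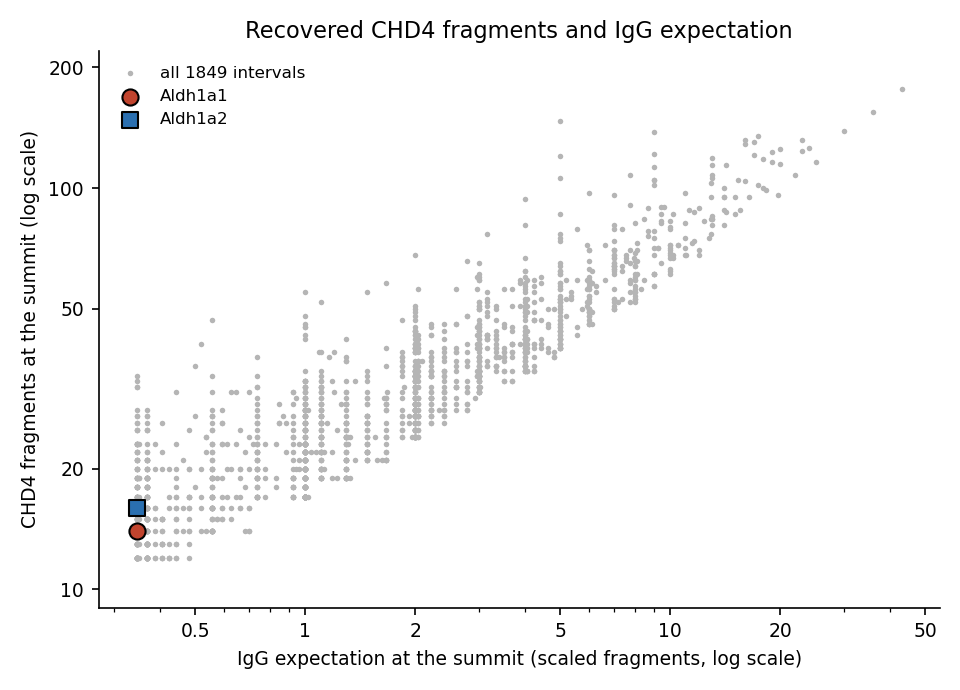
CHD4 fragments (y axis) against IgG expectation (x axis), both recovered at the summit and on log scales, with 1 grey point per interval. Aldh1a1 (circle, 14 fragments) and Aldh1a2 (square, 16 fragments) lie at the lower left, at the lowest expectation of 0.346.

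Both summits had the same −log10 p of 7.06 and the same −log10 q of 2.92, a q of 0.00119. Scaled to the IgG library, 14 and 16 fragments became 6.00 and 6.86. In the model that solves every summit, p uses the whole part of the scaled number, which is 6 for both. The same p was given to 38 summits of the list. Among summits at the lowest expectation, 12 or 13 fragments gave a −log10 q of 1.94 and 17 or 18 gave 4.05. No summit at that expectation was listed with fewer than 12 fragments, so Aldh1a1 stood 2 fragments and Aldh1a2 stood 4 above the smallest number seen there. By −log10 q, 50.3% of all intervals had a lower value than both genes.

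**Figure D4:**
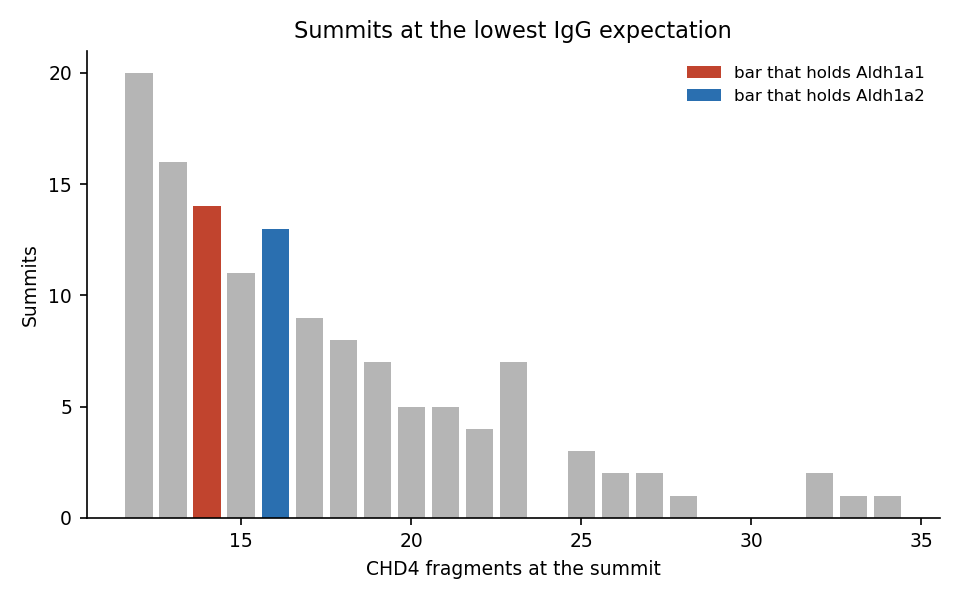
Number of summits (y axis) by CHD4 fragments (x axis) for the 131 summits at the lowest IgG expectation. The coloured bars, at 14 fragments with 14 summits and at 16 fragments with 13 summits, hold Aldh1a1 and Aldh1a2.

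Other intervals reached nearly the same fold, some from the same fragment numbers and some from larger ones. The 3 intronic intervals closest in fold to Aldh1a1 were those of Aig1, Dpf3 and Rasgef1b. Each had 14 fragments over 0.346 and thus the same fold of 5.20. The promoter intervals closest to Aldh1a2 were those of Tma16, Hdac2 and Ptpn2. Tma16 matched it with 16 fragments over 0.346, in an interval that began 19 bp past its start. Hdac2, a deacetylase of the NuRD complex, reached 5.84 with 44 fragments over 2.40, at a −log10 q of 6.09. Ptpn2, a tyrosine phosphatase, had 5.85 from 39 fragments over 2.03. At an equal fold, the Hdac2 and Ptpn2 promoters thus rested on more CHD4 fragments than the Aldh1a2 promoter did.

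Both intervals stood alone in their surroundings. The next interval after that of Aldh1a1 lay 490 kb away, intergenic and named for Tmc1, and the next before it lay 3.66 Mb away, at the Prune2 promoter. From the Aldh1a2 interval the distances were 860 kb, to an intronic interval of Tcf12, and 1.74 Mb, to the Anxa2 promoter. The median distance from an interval to its nearest neighbour was 145 kb, and 74.1% and 83.8% of intervals had a nearer neighbour than those of Aldh1a1 and Aldh1a2. No interval lay at Aldh1a7, nor at Aqp9, Anxa1 or Polr2m, the protein-coding genes next to the members.

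The other genes of the pathway were taken by role from a list of 63 retinoid genes. Of these, 5 were named for an interval, or 7.94% (exact 95% interval 2.63 to 17.6). Of all 21779 protein-coding genes, 6.1% were named. Since Aldh1a1 and Aldh1a2 were chosen for being named, the count without them is the one to read against that background: 3 of 61, or 4.92% (1.03 to 13.7), which is near it. Promoter intervals within 1 kb were named for 4 of the 63, Aldh1a2 among them, against 2.57% of all protein-coding genes. With q under 0.01, 3 were named (background 4.79%), and 3 among the intervals at or above the median fold (3.13%). An interval overlapped 5 of the 63 genes (4.29%) and lay within 10 kb of 7 (7.48%). The members are in each of these counts except that Aldh1a1 is not among the promoter ones, so nothing is read from them.

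Among the 5 genes grouped here under retinaldehyde dehydrogenases, Aldh1a1 and Aldh1a2 were named and Aldh1a3, Aldh1a7 and Aldh8a1 were not. The grouping does not show that each enzyme acts on retinaldehyde. Aldh1a3, which makes retinoic acid in other tissues, lay 412 kb from the nearest interval, and Aldh8a1 lay 394 kb from it. Of 15 aldehyde dehydrogenase genes outside this group, Aldh16a1 was named, at a fold of 5.20 that rested on 59 fragments and an expectation of 4.06. That interval also overlapped Pih1d1. Aldh3b1 was not named but lay 0.581 kb from an interval given to Ndufs8.

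Of 17 genes for oxidation or reduction of retinol and retinaldehyde, 3 were named, or 17.6% (exact 95% interval 3.80 to 43.4), all at promoters within 1 kb. Over all protein-coding genes, 6.1% were named and 2.57% had such a promoter interval, and the difference was not tested. Rdh13, a mitochondrial retinol dehydrogenase, had a fold of 8.56 from 25 fragments (16.2 to 36.9) over 0.369, above 97.7% of intervals. Rdh14, another retinol dehydrogenase, had 4.12 from 25 fragments over 1.85, and Akr1b3, an aldose reductase, had 4.14 from 17 fragments over 1.00. Each of the 3 had more fragments than Aldh1a1 or Aldh1a2 and a higher IgG expectation. For Akr1b3 the Poisson interval, 9.90 to 27.2, contains the fragment numbers of both genes, so no difference is read there. None of these differences was tested. Rdh10, the main retinol dehydrogenase of retinoic acid synthesis, had no row and lay 1.62 Mb from the nearest interval. Dhrs3, which turns retinaldehyde back to retinol, lay 1.60 Mb away. Rdh5 had no row either, but lay 3.24 kb from an interval given to Bloc1s1.

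Every other step of the pathway had no row under its own name. That was so for all 9 genes of retinol transport and storage, among them Rbp4, Stra6 and Lrat, and the nearest interval to any of them was 109 kb away. It was so for all 7 genes that release retinoids from esters or carotenoids, for the binding proteins Crabp1, Crabp2 and Fabp5, and for the breakdown enzymes Cyp26a1, Cyp26b1, Cyp26c1 and Cyp2s1. The nearest of these were Pnpla2, a lipase, at 14.6 kb from an interval, Cyp2s1 at 18.5 kb and Crabp2 at 42.4 kb. None of the 6 receptor genes Rara, Rarb, Rarg, Rxra, Rxrb and Rxrg was named, and the closest, Rxrb, lay 122 kb from an interval. With 0 of 6, the exact interval for the share reaches 45.9%.

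The 12 genes that respond to retinoic acid in germ cells, or are tied to that response, had no row either (0 of 12, exact interval up to 26.5%). Stra8 lay 309 kb, Kit 334 kb and Dazl 588 kb from the nearest interval. Nanos2, an RNA-binding protein that holds back meiosis in male germ cells, lay 1.81 kb from an interval given to Mypop. Meiosin, the partner of STRA8, lay 31.0 kb and Sohlh2, a factor of spermatogonial differentiation, lay 36.8 kb from one. Without Aldh1a1 and Aldh1a2, an interval was found within 100 kb of 20 of 61 retinoid genes (32.8%), against 24% of all protein-coding genes. Aldh1a7 is among the 20 through the Aldh1a1 interval, 78.4 kb from it, so this count is not free of how the members were chosen. Nor are the 20 genes separate finds. Adh4 and Adh5 are nearest to the same interval, given to Eif4e, and Dhrs4 and Rec8 to the same interval, given to Dcaf11. The median distance from these 61 genes to an interval, Aldh1a7 again included, was 218 kb, against 373 kb over all protein-coding genes. With Aldh1a1 and Aldh1a2 the values were 22 of 63 and 208 kb. Neither difference was tested. At this depth, a gene without a row is one where no peak was called, not one shown to lack CHD4.

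**Figure D5:**
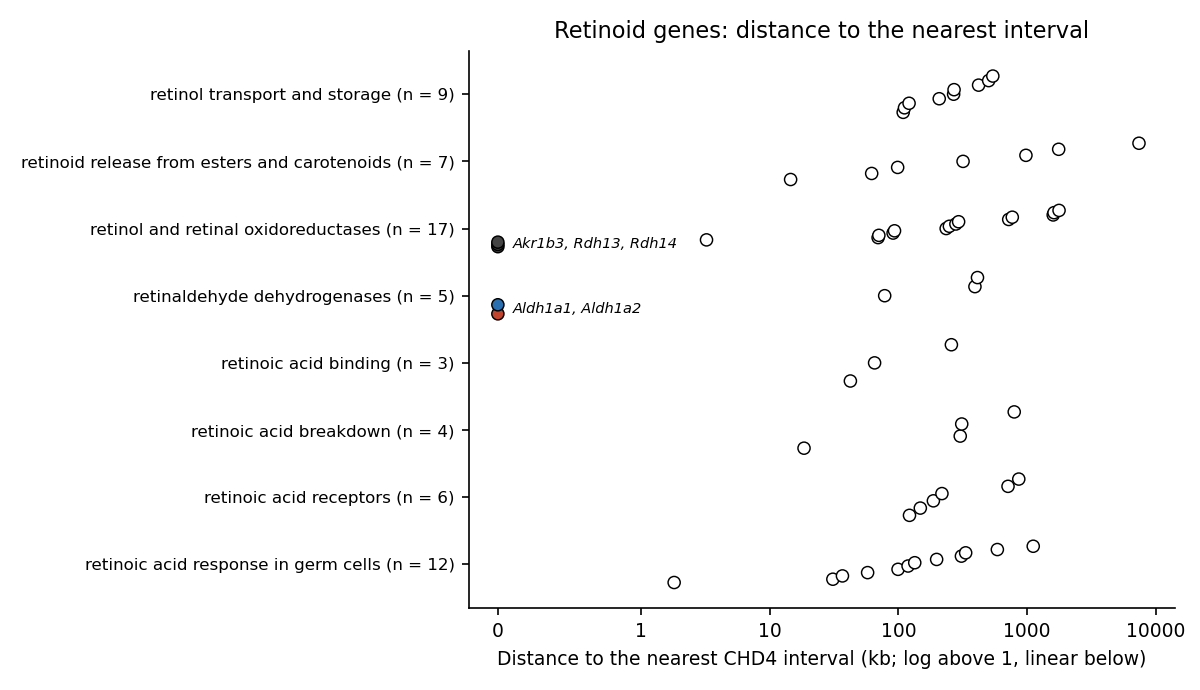
Distance from each of the 63 retinoid genes to the nearest CHD4 interval (x axis, kb), by role (y axis). Filled points are the 5 genes named for an interval, all at 0, and open points are the 58 that were not named.

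The labelled cell type could not be checked by expression, since a peak list holds none. Of 34 marker genes of testis cell types, 5 were named for an interval, and without Aldh1a1, which was chosen for being named, 4 of 33, where 6.1% of all protein-coding genes were named. They were Gata4 and Aldh1a1 among 6 Sertoli cell markers, with Sox9, Amh, Wt1 and Rhox5 not named, and Acta2, Kdr and Cdh5 among 4 of peritubular and endothelial cells. The intervals of Acta2, Kdr and Cdh5 lay upstream of the assigned starts, at −15.9, −11.9 and −99.3 kb. For Gata4 the interval of highest fold lay at −8.51 kb, and another was in the promoter within 1 kb. Wt1 itself had no row, but intronic intervals at folds of 3.92 and 5.64 were named for the gene Wt1os. Wt1os is not among the markers and is not counted, and genes beside the other unnamed markers are not given here. No marker was named of the 6 of undifferentiated spermatogonia, the 4 of differentiating spermatogonia, the 4 of spermatocytes, the 3 of spermatids, the 4 of Leydig cells or the 3 of macrophages. A peak is not a measure of which cells were present, and the part of other testis cells in the Aldh1a1 and Aldh1a2 intervals was not tested. The list is 1 call over the samples with no value for a single sample, so neither interval has a replicate check and no test between conditions was possible.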

How the data were processed

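CHD4 and IgG CUT&Tag was done on mouse spermatogonial samples, 2 per group. Reads were processed with MACS2 2.1.2, Bowtie2 2.2.5 and Trim Galore 0.5.0 on build mm10, per the submitters' processing notes. The sources used here do not state how replicates were combined. The table holds, per the file headers, a fold (FC), a ratio of CHD4 to IgG at each summit, and its log2. The authors' −log10 p and −log10 q stand in columns whose headers were lost, and the deposited score is 10 times the latter. The opening peak of the call had become part of the header and was not used.

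The list was read as 2066 summits in 1849 intervals, each given its summit of highest fold. Fragments (k) and the IgG expectation were solved from fold = (scale × k + 1)/(expectation + 1) and a Poisson p. A scale of 0.429 solved all 2066 summits within 0.0005 on −log10 p, with 1 solution each. Its whole fractions solve the list with multiples of the same numbers (at 1/2, an even number at all 2066), and the largest scale was taken. Of 40 sampled summits, no other scale that was searched solved more than 57.5% within 0.005. The solver was tested on data simulated with the same formula and scale, so that test cannot check the formula or the unit. Genes were matched by identifier to a RefSeq table (GRCm38.p6), for 1516 of 1517 genes. It lists 21779 protein-coding genes, after 340 genes of any kind starting before 3 Mb were left out. Of 86 genes looked up, 85 matched by symbol and 1 by a synonym. Promoter sequences are from RefSeq. Python 3.11.15, pandas 2.3.3, SciPy 1.17.1 and Biopython 1.88 were used.

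Genes named in the text are both members and retinoid genes by role (for those with no row, the nearest few; some results are not reported here). Distances for Rdh10, Dhrs3, Aldh1a3, Aldh8a1, Stra8, Kit and Dazl were added for their known roles after values were seen. Also named are the members' neighbours, the 3 intervals of the same class closest in fold, the marker genes and, outside these lists, Wt1os. The members and lists were chosen with earlier results of these data known, so no test was made on them.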

Additional observations from a re-analysis of the deposited data

How the results depend on the processing

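No paired analysis was possible because the list has no value for any single sample; for the same reason no replicate could be left out. Without the 1 that the caller adds to both signals, the ratio of CHD4 to IgG was 17.4 for Aldh1a1 and 19.8 for Aldh1a2, since the added 1 exceeds the expectation of 0.346. Taking the summit of highest −log10 q changed neither fold, as each interval has 1 summit. By fold, 63.5% of all intervals lay below Aldh1a1 and 77.7% below Aldh1a2; within their own classes these shares were 52.5% and 87.2%, and by −log10 q 50.3% for both. The count of 5 retinoid genes became 3 with q under 0.01 and 3 in the upper part of the list by fold, in each case Rdh13, Aldh1a1 and Aldh1a2, because fewer intervals were counted. It became 22 with any interval within 100 kb, because the window is wider. It was 5 by overlap and by symbol, 4 by promoter intervals within 1 kb and 7 within 10 kb. Counting error at 14 and 16 fragments alone allows folds from 3.18 to 8.23 for Aldh1a1 and from 3.66 to 9.02 for Aldh1a2.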
